A study of Mus musculus with 2 samples.

Results

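The genes described here are 10 members of the class I and class II antigen presentation pathways of the mouse, read across the cell classes of the adult striatum. Their rows were found by symbol among the 32285 genes of each count matrix, and all 10 were present in both. *H2-Aa*, *H2-Ab1*, *H2-Eb1*, *Cd74*, *H2-DMa* and *Ciita* belong to the class II pathway, and *H2-K1*, *H2-D1*, *B2m* and *Tap1* to the class I pathway.

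Single-cell RNA was sequenced with 10x Genomics chemistry in 2 libraries of dissociated striatum, replicates 1 and 2 of 1 condition. The animals were 8 to 10 weeks old according to the labels and received no treatment, and no allele, transgene or agent separates the libraries. The strain is C57/Bl6J in one field of the labels and C57BL/6NTac in another, and the number of animals behind each library is not given there. The cells are labelled as glia enriched, and the study's text describes male mice, slightly younger than the labels state, a preparation that favours non-neuronal cells, digestion with pronase, and actinomycin D, which blocks new transcription, in the dissociation solutions. Myelin debris was removed, and the kits named are of versions with different chemistry, without saying which served which library. With a single condition, every comparison is between classes of cells from the same suspensions, and the p-values measure only the spread between 2 libraries, which may be technical.

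Antigen presentation displays peptides on the cell surface for T cells. Class I molecules, a heavy chain such as *H2-K1* or *H2-D1* joined to β2-microglobulin (*B2m*), carry peptides made inside almost any nucleated cell, which the TAP transporter (*Tap1* with *Tap2*) moves into the endoplasmic reticulum. Class II molecules, the α and β chains of I-A (*H2-Aa*, *H2-Ab1*) and the β chain of I-E (*H2-Eb1*), are made mainly by professional antigen-presenting cells, with the invariant chain *Cd74* as chaperone, H2-DM (*H2-DMa* with *H2-DMb1* or *H2-DMb2*) as peptide editor and *Ciita* as the transcriptional coactivator that class II genes need. In the healthy brain, class II is known from cells at the borders and vessels rather than from neurons or most glia.

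Most of the genes lie in the major histocompatibility complex on chromosome 17. With GENCODE M21 on GRCm38, *H2-K1* spans chr17:33996017-34000347 (minus strand), *H2-DMa* chr17:34119541-34139101 (plus), *Tap1* chr17:34187553-34197225 (plus), *H2-Ab1* chr17:34257689-34269419 (plus), *H2-Aa* chr17:34282744-34287823 (minus), *H2-Eb1* chr17:34305867-34316674 (plus) and *H2-D1* chr17:35262730-35267499 (plus). *B2m* is at chr2:122147686-122153083 (plus) and *Ciita* at chr16:10480059-10528418 (plus). A gene on the opposite strand overlaps *H2-Eb1* (*Gm20513*), *H2-DMa* (*Brd2* and *CR974462.4*), *Ciita* (*Dexi*), *B2m* (*Patl2*) and *Tap1* (*Psmb9*), and whether counting used the strand is not given in the sources used here, so reads of such pairs may not have been told apart. *CR974462.3* overlaps *H2-DMa* on the same strand, where strand would not separate the reads.

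Sequences upstream of the genes are shown because several of the genes were high in the same cell classes. RefSeq promoter windows of GRCm38.p6, 250 bases before to 50 after the start, were matched for 7 of the 10 members. Class I and class II promoters are known to share a module in which a cyclic AMP response element-like box, bound by CREB or ATF factors, is followed by a CCAAT box bound by NF-Y. *H2-Ab1*, *Ciita* and *Cd74* are not in that table. TGACG, on either strand, was present in 5 of the 7 members' windows and in 20.8% of 32851 promoters, and CCAAT, on either strand, in 7 of 7 and in 37.4%. A spacing rule chosen after these windows were seen, TGACG followed on the gene's strand by ATTGG, the reverse complement of CCAAT, after 15 to 25 bases, was met by 4 of 7 and by 0.435% of all promoters. These matches contain the TGACG and CCAAT matches. A match describes letters only and shows no binding. In the following lines both words stand in capitals, 5′ to 3′ on the strand of the gene.
B2m, chr2:122147609-122147638, plus strand: TGACGacctccggatctgagtccggATTGG
H2-K1, chr17:34000359-34000388, minus strand: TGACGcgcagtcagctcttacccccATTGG
H2-D1, chr17:35262993-35263022, plus strand: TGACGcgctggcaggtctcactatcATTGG
H2-Aa, chr17:34287867-34287897, minus strand: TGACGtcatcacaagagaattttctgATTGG

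The RefSeq start of *H2-D1* lies downstream of its GENCODE start, so its window falls inside the span given above. The 3 class I windows have 20 bases between the words and *H2-Aa* has 21. Longer stretches, 150 bases before the start, contrast a class I with a class II promoter. That of *H2-K1* (chr17:34000348-34000497, minus strand) also holds GGATTCC, a word of the κB type, in capitals, found in 3.79% of all promoters and in 2 of the 7 members (*H2-K1* and *H2-D1*). That of *H2-Aa* (chr17:34287824-34287973, minus strand) holds TGACG on both strands, overlapping as TGACGTCA.
H2-K1: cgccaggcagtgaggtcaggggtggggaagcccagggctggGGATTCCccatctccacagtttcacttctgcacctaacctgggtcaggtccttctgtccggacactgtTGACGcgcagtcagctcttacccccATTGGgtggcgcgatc
H2-Aa: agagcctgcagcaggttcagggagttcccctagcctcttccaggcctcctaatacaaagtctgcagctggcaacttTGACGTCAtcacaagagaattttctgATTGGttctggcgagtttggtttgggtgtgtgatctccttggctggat

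Replicate 1 held 6978 barcodes and 44597660 UMIs (unique molecular identifiers, which count molecules), and replicate 2 held 5437 barcodes and 37982720 UMIs. After removal of barcodes under 300 genes and of marked doublets, 11995 cells remained, and 9 barcodes were shared between the libraries. Clustering that left the members out gave 12 clusters in 10 classes, named by markers: astrocyte-like (2425 cells), oligodendrocyte-like (2366), microglia-like (2142), neuroblast-like (1550), endothelial-like (1404), OPC-like (oligodendrocyte precursor-like, 643), neuron-like (643), mural-like (554), macrophage-like (171) and erythroid-like (97). The suspension labelled as glia enriched thus also held vascular, neuron-like and neuroblast-like cells, and at a finer resolution the astrocyte-like class held 841 ependymal-like cells. Levels below are CPM, the UMIs of a gene per 1000000 UMIs of a class in a library, so a class in which few cells make much of a transcript and one in which many cells make a little cannot be told apart from the level alone. The erythroid-like class held 11 cells in replicate 2 and was left out of the tests.

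UMIs were summed per library and class, and 9 classes entered a single fit of edgeR (quasi-likelihood test) that blocked on library and used TMM factors, which scale the sums on the premise that most genes do not differ. A gene was called where the Benjamini-Hochberg adjusted p over the 15139 genes tested was under 0.05. Differences are log2 values ± SE from this fit, and intervals on levels and shares cover counting error only. Each class carried its own markers: the summed level of 8 macrophage markers was 12505 and 8836 CPM in the macrophage-like class and at most 254 CPM in any other. Some classes also carried markers of another. The mural-like class had 4691 and 5213 CPM of 7 endothelial markers, and the macrophage-like class 3727 and 3179 CPM of 8 microglia markers. The endothelial-like class had 3907 and 1600 CPM of 7 oligodendrocyte markers.

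The class II genes were concentrated in the macrophage-like class, which made up 94 cells of replicate 1 and 77 of replicate 2. *H2-Aa*, the α chain of I-A, was at 1984 CPM in replicate 1 and 1796 CPM in replicate 2. *H2-Ab1*, the β chain that pairs with it, was at 2162 and 1608 CPM. *H2-Eb1*, the β chain of I-E, was at 2120 and 1758 CPM. The 3 chains thus stood at similar UMI levels in this class, and in both libraries. *Cd74*, the invariant chain, was at 5617 and 5079 CPM and gave 47.3% and 49.6% of the UMIs of these 4 genes. *Ciita*, the class II coactivator, was at 36.7 and 27.7 CPM. *H2-DMa*, the α chain of the peptide editor, was at 280 and 267 CPM.

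In the other 8 classes tested, *H2-Aa* did not exceed 2.67 CPM and *H2-Eb1* did not exceed 5.34 CPM in either library. *H2-Ab1* reached 9.02 and 10.0 CPM in the microglia-like class, and at most 4.27 CPM in the rest. *Cd74* reached 35.1 and 82.6 CPM in the microglia-like class, and at most 5.34 CPM in the rest. These low levels rest on few molecules: the neuron-like and OPC-like classes held 0 UMIs of *H2-Aa*, which allows up to 1.08 and 0.718 CPM with both libraries pooled and 3 counts as the limit.

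*Ciita* was seen in 35 UMIs of the macrophage-like class, 22 in replicate 1 and 13 in replicate 2. It was at 0 UMIs in both libraries of the microglia-like, astrocyte-like, OPC-like, mural-like and neuron-like classes, while the endothelial-like class held 1 UMI, the neuroblast-like class 2 and the oligodendrocyte-like class 3. Pooled over the libraries, its level in the macrophage-like class was at least 137-fold higher than in the microglia-like class and at least 102-fold higher than in the astrocyte-like class, with 3 counts over both libraries set in place of 0.

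**Figure D1:**
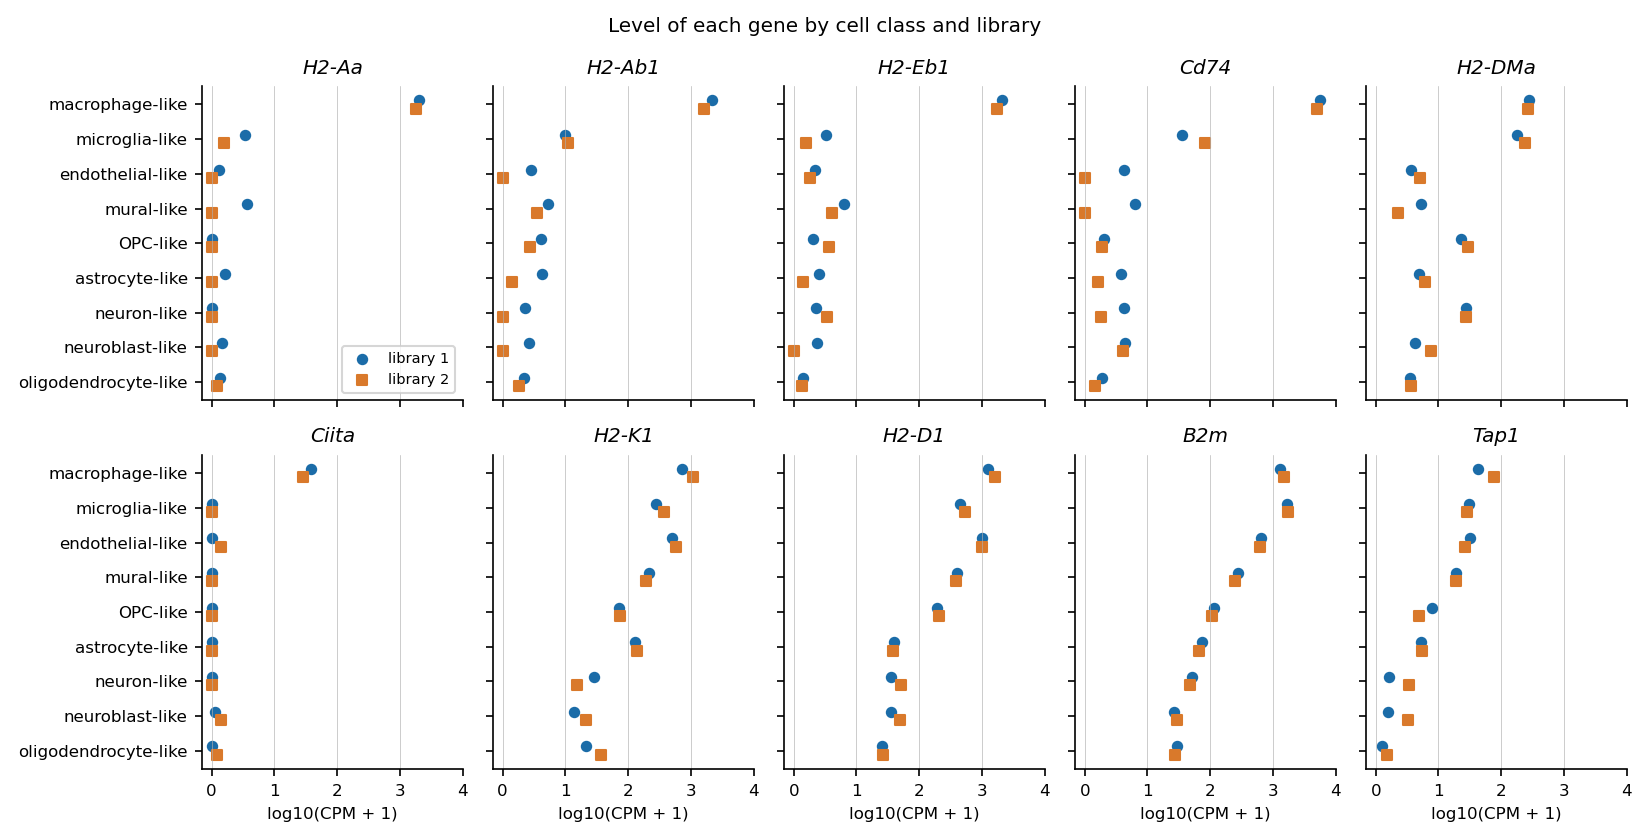
Level of each of the 10 genes in 9 cell classes, as log10(CPM + 1) on the horizontal axis, with circles for replicate 1 (library 1) and squares for replicate 2 (library 2). The class II genes H2-Aa, H2-Ab1, H2-Eb1, Cd74 and Ciita stand apart in the macrophage-like class, H2-DMa is high in both macrophage-like and microglia-like classes, and the class I genes fall off gradually from macrophage-like, microglia-like and endothelial-like to neuroblast-like and oligodendrocyte-like classes.

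Against the microglia-like class, the macrophage-like class was higher by 10.04 ± 0.36 for *H2-Aa*, 7.39 ± 0.32 for *H2-Ab1*, 10.13 ± 0.33 for *H2-Eb1* and 6.28 ± 0.45 for *Cd74* (log2 difference ± SE, 2 libraries; adjusted p = 1.4e-10, 1.4e-10, 5.4e-12 and 5.0e-08). The difference in *H2-DMa*, 0.19 ± 0.19, did not pass the test (adjusted p = 0.55). Of all 15139 genes tested, 20.8% were called in this comparison. 8 of the 10 members were called, but *H2-Aa* and *Ciita* passed the filter on low counts only through the macrophage-like sums. *H2-Eb1* passed it only through those and a mural-like sum. High levels in that class thus put these genes into the test, so the count is no measure beside the share of all genes. The *Ciita* call was lost with DESeq2, with cells thinned to 1000 UMIs and without the immune subclusters described below. Against the endothelial-like class all 10 members were called, where 32.3% of all genes were. *H2-Aa*, *Ciita* and *H2-Eb1* again entered the test only through the sums named above, so the full count is no measure beside the share of all genes. There *H2-DMa* was higher by 6.47 ± 0.29, *H2-K1* by 0.82 ± 0.23, *H2-D1* by 0.61 ± 0.15, *B2m* by 1.24 ± 0.12 and *Tap1* by 1.07 ± 0.32 (adjusted p = 6.5e-11, 9.6e-03, 3.4e-03, 5.3e-07 and 0.017). The *Ciita*, *H2-D1* and *Tap1* calls were lost with cells thinned to 1000 UMIs, and the *Ciita* call also with DESeq2.

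The class II transcripts came from a small part of the macrophage-like class. Of the 171 cells, 104 (60.8%) held no UMI of *H2-Aa*, *H2-Ab1*, *H2-Eb1* or *Cd74*, and 19 cells held 90% of the 11930 UMIs. The 30 cells with UMIs of all 4 genes held 99.1% of them. Clustered by themselves, again without the members, the macrophage-like cells gave 7 subclusters, of which 3 carried markers of other immune cells. These 3 held 42 cells (24.6%) and 95.3% of the class II UMIs: 98.8% in 15 cells of replicate 1 and 90.0% in 27 cells of replicate 2.

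A subcluster of 22 cells held most of this signal. It had *Ccr2* in 18 cells and *Flt3* in 9, with 3 of 4 monocyte markers (*Ccr2*, *Plac8*, *Chil3*) and 4 of 7 dendritic cell markers (*Flt3*, *Cd209a*, *Ccr7*, *Batf3*) raised, and is left unnamed. All *Ccr7* UMIs came from 1 cell, and 2 of 4 neutrophil markers (*S100a8* and *S100a9*) were also raised, with all 194 *S100a8* UMIs in 1 cell. In it *H2-Aa* reached 11415 and 8191 CPM, *H2-Ab1* 12427 and 7667 CPM, and *H2-Eb1* 12194 and 8191 CPM. *Cd74* reached 31833 and 21939 CPM, *H2-DMa* 1382 and 1088 CPM, and *Ciita* 204 and 91.7 CPM. All 6 class II members were therefore several times higher here than in the class as a whole, in both libraries. The 9 B cell-like cells, 1 in replicate 1 and 8 in replicate 2, had *Cd74* at 14644 and 15890 CPM and *H2-Aa* at 1302 and 4502 CPM. The 11 T cell-like cells, 1 in replicate 1 and 10 in replicate 2, held 0 UMIs of *H2-Aa*, *H2-Ab1*, *H2-Eb1* and *Cd74*, while *H2-K1* stood at 4672 and 2053 CPM.

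The remaining 129 macrophage-like cells, 79 in replicate 1 and 50 in replicate 2, had lower class II levels, further apart between the libraries. *H2-Aa* was at 26.6 CPM in replicate 1 and 275 CPM in replicate 2, and *H2-Eb1* at 20.4 and 305 CPM. *Cd74* was at 110 and 777 CPM, with a UMI in 21.5% and 34.0% of cells. Replicate 2 was the higher library for each, but 3 of its 50 cells, with 198, 143 and 112 UMIs, held 453 of the 478 UMIs of the 4 genes counted there, and the second of these had 2 UMIs of the macrophage markers. The other 47 cells held 25 UMIs, or 87.4 CPM. In replicate 1 the 79 cells held 85 UMIs, or 174 CPM, and 29 UMIs, or 63.0 CPM, without the 3 cells that held most. *H2-DMa* was at 53.2 and 76.3 CPM, and *Ciita* at 0 and 6.64 CPM. Without the 3 immune subclusters, a comparison added after these values were seen, *H2-DMa* was lower in the macrophage-like than in the microglia-like class, at -2.00 on the log2 scale (adjusted p = 9.0e-06), where 18.6% of all genes were called. Against the endothelial-like class 6 members rather than 10 were called, where 30.3% of all genes were, with *Ciita*, *H2-K1*, *H2-D1* and *Tap1* no longer among them. The 6 include *H2-Aa* and *H2-Eb1*. In the full fit these passed the low-count filter only through macrophage-like sums, with a mural-like sum for *H2-Eb1*. The count is therefore no measure beside that share, and its class II values in replicate 2 rest mostly on the 3 cells above.

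**Figure D2:**
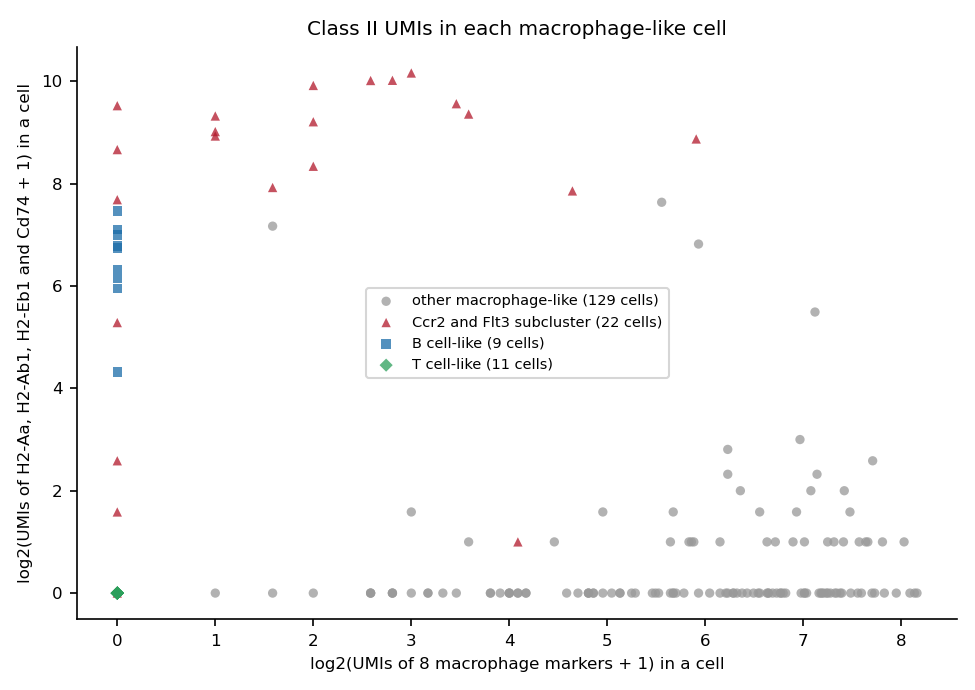
Each point is 1 macrophage-like cell, with the summed UMIs of the 8 macrophage markers on the horizontal axis and of H2-Aa, H2-Ab1, H2-Eb1 and Cd74 on the vertical axis, both as log2(UMIs + 1). Most of the 129 cells outside the immune subclusters lie at or near 0 class II UMIs whatever their macrophage markers, whereas most of the 22 cells of the Ccr2 and Flt3 subcluster and the 9 B cell-like cells lie high with few macrophage markers, and the 11 T cell-like cells lie at 0 on both axes.

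*Cd74* made up a larger part of the class II UMIs in the microglia-like class. It gave 72.0% and 88.1% of the UMIs of the 4 genes there, beside 47.3% and 49.6% in the macrophage-like class. A *Cd74* UMI was present in 7.97% of microglia-like cells in replicate 1 (exact 95% interval 6.45% to 9.71%) and 13.6% in replicate 2 (11.5% to 15.8%). In the oligodendrocyte-like class, which has deeper cells (median 11606 and 12140 UMIs beside 6930 and 5500), the share was 1.01% and 0.595%. With each cell thinned to 1000 UMIs the shares were 1.37% and 6.20% in the microglia-like class and 0% and 0.0860% in the oligodendrocyte-like class. The 10 microglia-like cells with most *Cd74* held 51.8% of its UMIs in replicate 1 and 38.3% in replicate 2, with at most 21 and 32 UMIs in a cell. Replicate 2 was higher than replicate 1 in level and in share, and the intervals, which cover counting error only, did not overlap. Against the endothelial-like class, *Cd74* was higher in the microglia-like class by 5.28 ± 0.65 and *H2-Ab1* by 3.57 ± 0.60 (log2 ± SE; adjusted p = 2.7e-06 and 9.3e-05), among 6 members called where 46.8% of all genes were. *H2-Aa*, *H2-DMa*, *H2-D1* and *B2m* were the other 4, while *H2-Eb1*, *Ciita*, *H2-K1* and *Tap1* were not called. The *H2-Aa* call rests on 17 and 3 UMIs beside 1 and 0. It was lost with DESeq2, with library sizes alone, without the library block, without cells holding an immune marker and without the immune subclusters.

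The 2 microglia-like clusters differed in depth. In replicate 1, 11 of the 17 *H2-Aa* UMIs of the class came from 300 cells of the shallower cluster (median 1180 UMIs), where its level was 26.7 CPM beside 0.897 CPM in the 817 deeper cells. In replicate 2 the shallower cluster, 197 cells, held 0 UMIs of *H2-Aa*. *H2-DMa* was at 175 CPM in both clusters of replicate 1, and in replicate 2 at 234 CPM in the deeper and 318 CPM in the shallower cluster.

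*H2-DMa* differed from the other class II genes in its distribution: it was high in the microglia-like class and present in 2 further classes. In the microglia-like class it was at 175 and 238 CPM, with a UMI in 55.1% and 59.8% of cells. It was at 21.98 and 28.7 CPM in the OPC-like class, and at 26.0 and 26.4 CPM in the neuron-like class. In the astrocyte-like, endothelial-like, mural-like, neuroblast-like and oligodendrocyte-like classes it lay between 1.26 and 6.57 CPM. Shares of cells with a UMI set the same classes above the rest: 11.7% and 16.3% of OPC-like cells (median 6975 and 7258 UMIs) and 9.14% and 8.08% of neuron-like cells (median 2431 and 2639 UMIs) had a UMI, beside 2.86% and 2.80% of the deeper oligodendrocyte-like cells. Thinned to 1000 UMIs a cell, these shares were 2.43% and 4.18%, 2.60% and 1.92%, and 0.261% and 0.344%. The OPC-like class was higher than the astrocyte-like class by 2.08 ± 0.29 and the neuron-like class by 2.26 ± 0.31 (log2 ± SE; adjusted p = 2.0e-05 and 1.1e-05), and the libraries of these classes did not overlap.

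Microglial RNA was measured in the same cells. The summed level of 8 microglia markers was 366 and 501 CPM in the neuron-like class and 191 and 137 CPM in the OPC-like class, beside 23666 and 26154 CPM in the microglia-like class and 293 and 209 CPM in the astrocyte-like class. All 8 were detected in the neuron-like, OPC-like and astrocyte-like sums. Its part in the *H2-DMa* levels was not tested. *H2-DMa* also shares positions with *Brd2* on the opposite strand and with *CR974462.3* on the same strand, as given above.

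The class I genes were detected in all 9 classes tested, with a graded order. *H2-D1*, a classical heavy chain, was highest in the macrophage-like class, at 1245 and 1626 CPM, followed by the endothelial-like class at 1004 and 984 CPM and the microglia-like class at 445 and 541 CPM. The mural-like class had 403 and 379 CPM and the OPC-like class 194 and 207 CPM. The neuron-like class had 35.1 and 49.5 CPM, the neuroblast-like class 35.0 and 49.1 CPM, the astrocyte-like class 38.1 and 36.9 CPM and the oligodendrocyte-like class 24.4 and 25.4 CPM. Each step from the macrophage-like class down to the neuron-like class passed the test (5 of 8 neighbouring pairs), and the 3 steps among the lowest classes did not. The step from the macrophage-like to the endothelial-like class was not called without the 3 immune subclusters. The remaining macrophage-like cells had *H2-D1* at 998 and 1185 CPM.

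*H2-K1*, the other classical heavy chain measured, was at 728 and 1064 CPM in the macrophage-like class, 496 and 575 CPM in the endothelial-like class and 280 and 376 CPM in the microglia-like class. The mural-like class had 213 and 188 CPM and the astrocyte-like class 128 and 137 CPM. The OPC-like class had 69.6 and 72.0 CPM, the oligodendrocyte-like class 20.0 and 36.4 CPM, the neuron-like class 27.3 and 14.4 CPM and the neuroblast-like class 12.5 and 20.1 CPM. The order thus differed from that of *H2-D1*. The oligodendrocyte-like class was lowest for *H2-D1* but stood above the neuron-like class for *H2-K1*, where the libraries of these 2 classes overlapped. The astrocyte-like class also changed place. It stood above the OPC-like class for *H2-K1*, by 1.31 ± 0.24, and below it for *H2-D1*, where the OPC-like class was higher by 2.01 ± 0.16 (adjusted p = 3.4e-04 and 3.8e-08, where 42.8% of all genes were called).

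*B2m*, the light chain shared by class I molecules, was led by the microglia-like class at 1662 and 1714 CPM, above the macrophage-like class at 1305 and 1487 CPM. The endothelial-like class had 647 and 618 CPM, the mural-like class 273 and 245 CPM and the OPC-like class 114 and 107 CPM. The astrocyte-like class had 73.6 and 65.1 CPM and the neuron-like class 50.1 and 47.1 CPM, and the oligodendrocyte-like and neuroblast-like classes lay between 25.3 and 29.0 CPM. *B2m* therefore spanned 6.49 ± 0.16 on the log2 scale from the microglia-like to the neuroblast-like class. These were picked as the highest and lowest classes by mean level, so no test is given for the pair.

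*Tap1*, a subunit of the peptide transporter, was low throughout. It was at 41.7 and 74.7 CPM in the macrophage-like class, 31.4 and 25.9 CPM in the endothelial-like class, 29.2 and 27.4 CPM in the microglia-like class and 18.1 and 18.2 CPM in the mural-like class. In the OPC-like and astrocyte-like classes it lay between 3.97 and 6.80 CPM, and in the neuron-like, neuroblast-like and oligodendrocyte-like classes between 0.275 and 2.40 CPM. Macrophage-like, endothelial-like and microglia-like classes thus led for each of the 4 class I genes. Outside the immune subclusters, macrophage-like cells had *H2-K1* at 634 and 617 CPM and *Tap1* at 28.6 and 29.9 CPM. Neither gene was then called against the endothelial-like class. Of the 8 steps between neighbouring classes, 4 passed the test for *H2-K1*, 5 for *H2-D1*, 6 for *B2m* and 4 for *Tap1*, beside 1 or 2 for each class II gene, 28 of 80 in all. Some class II steps lay between classes with 0 UMIs each, such as *H2-Aa* from the OPC-like to the neuron-like class, and could not pass. The lower class II counts therefore do not show a less graded order. Neighbours were taken from each gene's own order of levels and are therefore its smallest steps, so that the 51.4% of all genes called over all 36 pairs of classes is no reference for these counts. CPM and the fitted scale can part: *B2m* stood at nearly equal CPM in the oligodendrocyte-like and neuroblast-like classes, yet the fitted difference was 0.58 (adjusted p = 1.5e-03).

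Relative to the heavy chains, *B2m* was highest in the microglia-like class. The ratio of *B2m* UMIs to the sum of *H2-K1* and *H2-D1* UMIs was 2.29 in replicate 1 and 1.87 in replicate 2 there, and between 0.373 and 0.802 in the other 8 classes. Between the macrophage-like and microglia-like classes the heavy chains and *B2m* differed in opposite directions: *H2-K1* was higher in the macrophage-like class by 1.21 ± 0.23 and *H2-D1* by 1.30 ± 0.15, and *B2m* was lower, at -0.51 ± 0.12 (log2 ± SE; adjusted p = 1.0e-03, 6.9e-06 and 6.1e-03). The *B2m* difference is on a scale where the median gene stood at -0.29. It did not pass with library sizes alone (-0.27, adjusted p = 0.18), with DESeq2 (-0.21, adjusted p = 0.15) or at the finer clustering. *Tap1*, at 0.76 ± 0.31, did not pass either (adjusted p = 0.095). Without the immune subclusters *H2-K1* differed by 0.64 (adjusted p = 0.069).

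The balance of the heavy chains set the astrocyte-like class apart. Its log2 ratio of *H2-K1* to *H2-D1* UMIs was 1.75 in replicate 1 (596 and 177 UMIs) and 1.90 in replicate 2 (640 and 172 UMIs). The microglia-like, macrophage-like, mural-like, endothelial-like, neuroblast-like and OPC-like classes all had ratios below 0 in both libraries, from -0.53 to -1.53. The oligodendrocyte-like class, at -0.29 and 0.52, and the neuron-like class, at -0.36 and -1.78, changed sign or size between the libraries. The ratio is compared only between classes, since UMIs of genes with different 3′ ends are not on 1 scale.

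At the finer resolution the astrocyte-like cells proper (1497) had a log2 ratio of 2.07 and 2.10, and the ependymal-like cells (841) 0.94 and 1.18. Within the oligodendrocyte-like class, 272 cells that received no name had *H2-K1* at 42.6 and 128 CPM and *H2-D1* at 39.0 and 46.0 CPM, beside 15.3 and 21.4 CPM and 21.4 and 21.99 CPM in the other 2094. *H2-K1* stood above the other oligodendrocyte-like cells in both libraries, most of all in replicate 2, a difference that was not tested. The heavy chains resemble each other closely: of the 50-base words in the last 400 bases of their transcripts, 13.3% for *H2-K1* and 22.5% for *H2-D1* also occurred in other genes, each other among them, so how counting divided such reads makes both levels uncertain.

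**Figure D3:**
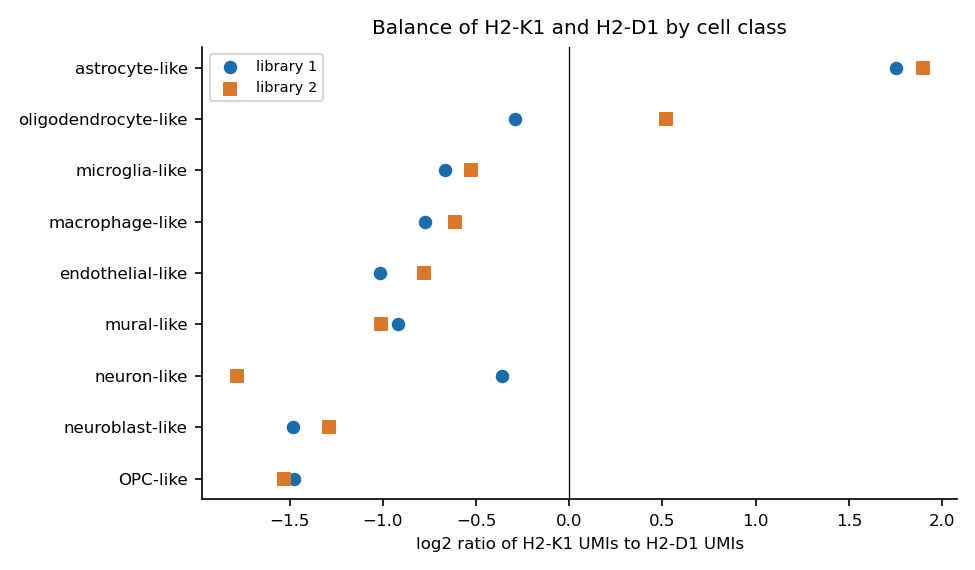
Log2 ratio of H2-K1 to H2-D1 UMIs by cell class, with circles for replicate 1 (library 1), squares for replicate 2 (library 2) and a line at equal UMIs. The astrocyte-like class lies at 1.75 and 1.90, the oligodendrocyte-like class changes sign between the libraries, and every other class lies below 0 in both.

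The endothelial-like class was higher than the astrocyte-like class for all 4 class I members: by 2.06 ± 0.23 for *H2-K1*, 4.78 ± 0.17 for *H2-D1*, 3.24 ± 0.13 for *B2m* and 2.76 ± 0.32 for *Tap1* (log2 ± SE), where 56.9% of all genes were called. These 4 calls are a share of the 10 members no higher than that of all genes. edgeR and DESeq2 called 0 of the 6 class II members in that comparison, and 0 had an unadjusted p under 0.05. Few UMIs were counted there: *H2-Aa* had 1 and 0 in the endothelial-like and 3 and 0 in the astrocyte-like class. *Ciita* had 0 and 1 beside 0 and 0. At such counts a call was hardly possible, so no conclusion on equal levels is drawn. The microglia-like class exceeded the astrocyte-like class by 1.68 ± 0.23 for *H2-K1*, 4.09 ± 0.17 for *H2-D1*, 4.99 ± 0.14 for *B2m* and 3.07 ± 0.31 for *Tap1*, and 8 members were called where 62.8% of all genes were. The *H2-Aa* call among these was lost with DESeq2, with library sizes alone, without cells holding an immune marker and without the immune subclusters. *H2-D1* was lower in the microglia-like than in the endothelial-like class, at -0.69 ± 0.14, and *B2m* was higher, at 1.75 ± 0.12 (adjusted p = 7.2e-04 and 2.7e-09). *H2-K1*, at -0.38 ± 0.22, and *Tap1*, at 0.31 ± 0.25, did not pass there, although *H2-K1* passed with library sizes alone (-0.72, adjusted p = 0.012).

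The astrocyte-like class stood above the neuron-like and oligodendrocyte-like classes in *H2-K1*, whereas the *H2-D1* differences depended on the scaling. *H2-K1* was lower than in astrocyte-like cells, at -1.85 ± 0.23 in the oligodendrocyte-like class and -2.90 ± 0.30 in the neuron-like class (adjusted p = 3.2e-06 and 4.3e-07). *H2-D1* differed by -0.18 ± 0.16 and -0.12 ± 0.18 (adjusted p = 0.34 and 0.60), and the latter changed sign with library sizes alone (0.16) and with DESeq2 (0.10). The former passed with library sizes alone (-0.59, adjusted p = 5.1e-03) and with DESeq2 (-0.43, adjusted p = 0.027). *Tap1* was lower in both, at -2.96 ± 0.50 and -1.87 ± 0.72, and so was *B2m*, at -0.91 ± 0.13 and -0.79 ± 0.15. The *Tap1* call in the neuron-like class (adjusted p = 0.040) was lost with DESeq2 (adjusted p = 0.074), with library sizes alone (0.086), without cells holding an immune marker (0.060) and with cells thinned to 1000 UMIs (0.61), and its *B2m* call was lost with thinned cells (0.17). In all, 3 members were called in the oligodendrocyte-like comparison, where 59.8% of all genes were, and 4 in the neuron-like comparison, where 52% were, shares no higher than those of all genes. Both comparisons share the astrocyte-like sums.

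**Figure D4:**
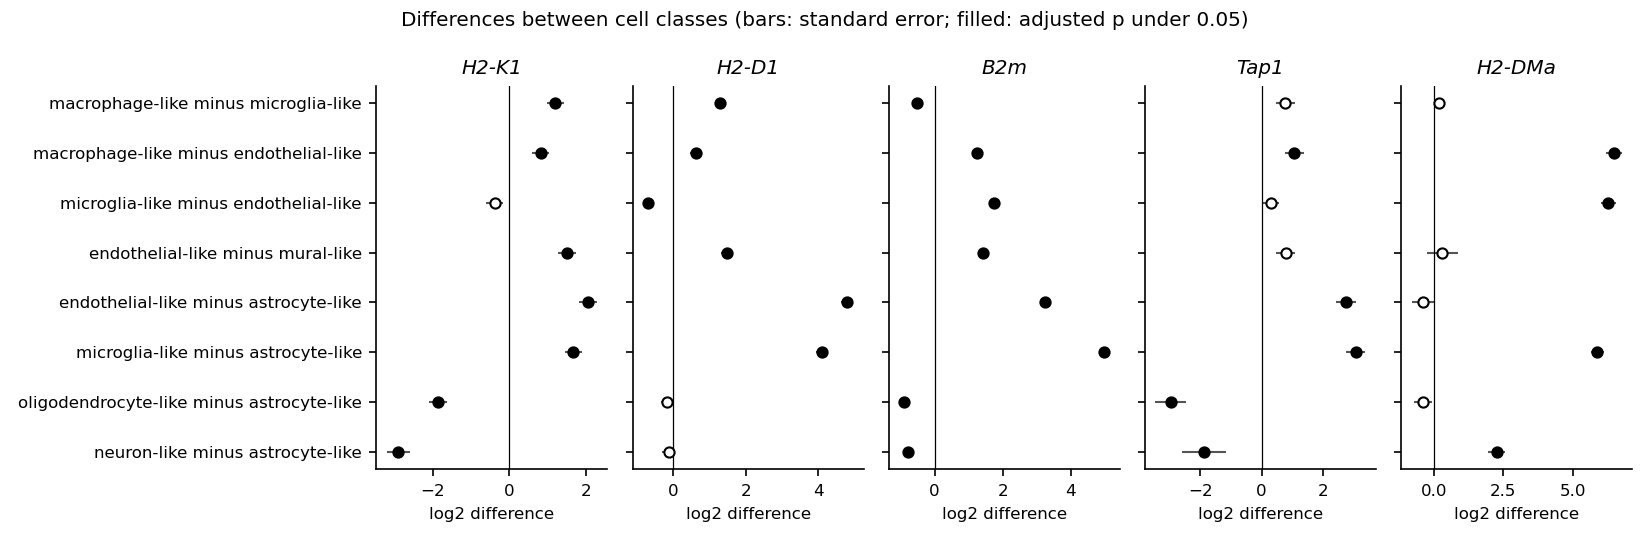
Fitted log2 differences of H2-K1, H2-D1, B2m, Tap1 and H2-DMa in 8 comparisons between cell classes, with standard errors as bars and filled points where the adjusted p is under 0.05. H2-DMa, B2m and H2-D1 reach the largest differences, and B2m alone has a filled point on the lower side between macrophage-like and microglia-like classes.

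The endothelial-like class carried more class I than the mural-like class as clustered. *H2-K1* was higher by 1.52 ± 0.23, *H2-D1* by 1.47 ± 0.15 and *B2m* by 1.41 ± 0.13 (log2 ± SE; adjusted p = 8.3e-05, 1.1e-06 and 2.8e-07), or 2.87-fold, 2.77-fold and 2.66-fold. These were 3 of 10 members, a share near the 27.5% of all genes called, so the count does not set the members apart. *Tap1* was at 0.79 ± 0.31 (adjusted p = 0.069). A subcluster of 65 mural-like cells was endothelial-like by markers. It held 213 of 400 and 165 of 300 *H2-K1* UMIs of the mural-like class in replicates 1 and 2. For *H2-D1* it held 414 of 755 and 363 of 603, and for *B2m* 304 of 511 and 207 of 390. The difference without these cells was not tested.

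Endothelial-like cells clustered by themselves gave 9 subclusters. By markers, those of 155, 104, 59 and 14 cells were astrocyte-like, neuron-like, oligodendrocyte-like and microglia-like. Haemoglobin genes led in another, of 203 cells. These stayed in the class sums but not in the subcluster comparisons, which used the other 4. The arterial-like one, which had all 6 arterial markers raised, also had 4 of 7 neuroblast markers raised (*Sox11*, *Cd24a*, *Igfbpl1* and *Dlx6os1*), with a summed level of the 7 at 219 CPM beside 65.7, 48.0 and 24.5 CPM in the other 3. The part of these markers in its class I levels was not tested. Subcluster 0 (318 cells), which no marker list names, had *H2-K1* at 449 and 444 CPM and *H2-D1* at 981 and 908 CPM. The arterial-like subcluster (179 cells) had *H2-K1* at 641 and 706 CPM, *H2-D1* at 1406 and 1185 CPM, *B2m* at 843 and 790 CPM and *Tap1* at 53.7 and 21.99 CPM. The venous-like subcluster (128 cells) had *H2-K1* at 560 and 730 CPM and *H2-D1* at 1049 and 1136 CPM. Arterial-like cells lay above subcluster 0 in both libraries for *H2-K1*, *H2-D1* and *B2m*, which in subcluster 0 was at 621 and 553 CPM, while *Tap1* was split between the libraries.

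Arterial-like cells exceeded subcluster 0 by 0.58 ± 0.12 for *H2-K1*, 0.44 ± 0.11 for *H2-D1* and 0.46 ± 0.12 for *B2m* (log2 ± SE; adjusted p = 5.9e-04, 4.6e-03 and 5.7e-03), 3 of the 4 members tested, where 7.62% of all genes were called. Venous-like cells exceeded it in *H2-K1*, by 0.52 ± 0.13 (adjusted p = 4.3e-03), 1 of 4 where 4.97% of all genes were called. Between arterial-like and venous-like cells edgeR called 0 of 4 members, where 11% of all genes were called. An unadjusted p under 0.05 was seen for 2 (*H2-D1* and *B2m*), and DESeq2 called 0. No conclusion on equal levels is drawn from 4 members. Against subcluster 0 no member was called by edgeR without the library block or with cells thinned to 1000 UMIs, where the arterial-like differences in *H2-K1*, *H2-D1* and *B2m* had adjusted p = 0.060, 0.069 and 0.099, and an unadjusted p under 0.05 in both settings. With DESeq2 the arterial-like difference in *B2m* (adjusted p = 0.081) and the venous-like difference in *H2-K1* were not called.

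**Figure D5:**
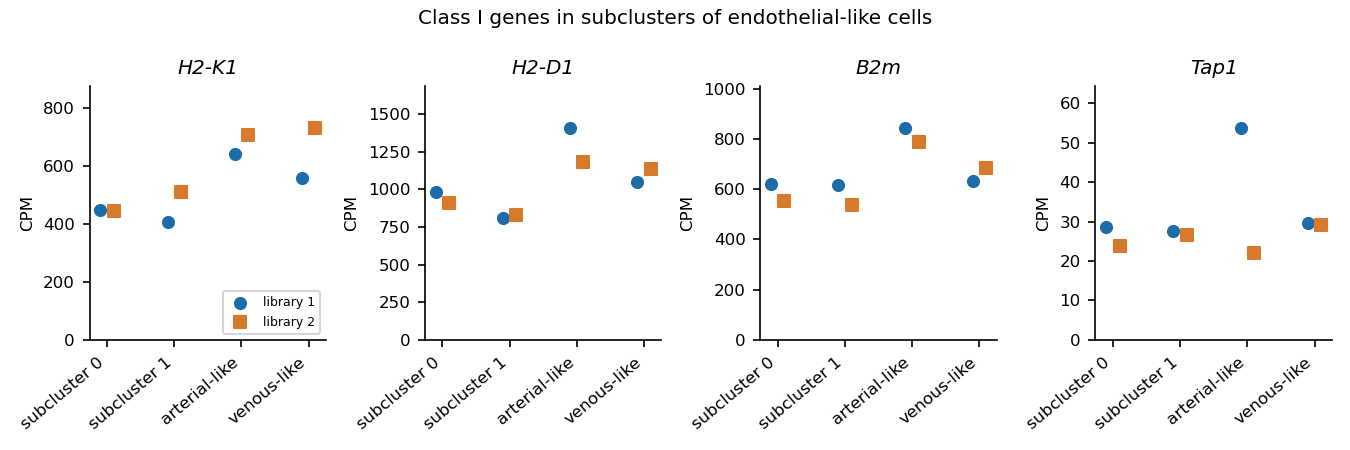
Levels of H2-K1, H2-D1, B2m and Tap1 in CPM, on axes that start at 0, in 4 subclusters of endothelial-like cells, with circles for replicate 1 (library 1) and squares for replicate 2 (library 2). The arterial-like points lie above those of subclusters 0 and 1 for H2-K1, H2-D1 and B2m, and the Tap1 points of the arterial-like subcluster are far apart.

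Among mural-like cells, the pericyte-like subcluster (151 cells) had *H2-D1* at 314 and 338 CPM and the smooth muscle-like subcluster (112 cells) had 148 and 140 CPM. A subcluster of 64 cells with all 5 fibroblast markers raised also had all 6 astrocyte and all 7 oligodendrocyte markers raised, and its comparison is not given. The pericyte-like minus smooth muscle-like difference was 0.85 ± 0.27 (adjusted p = 0.030), and *H2-K1* and *B2m*, the other 2 members tested, were not called, where 27.2% of all genes were. The *H2-D1* call was lost without the library block and with DESeq2. *H2-Eb1* was found in 6 and 4 UMIs of the pericyte-like subcluster (16.4 and 14.5 CPM), with 0 UMIs of *H2-Aa* in either library, and in 1 and 0 UMIs of the smooth muscle-like subcluster.

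The study divides striatal astrocytes by *Crym*, the gene of μ-crystallin, and the members were read across a like division. It was made over the whole astrocyte-like class, which at the finer resolution included 841 ependymal-like and 87 neuroblast-like cells. The groups are therefore not astrocytes alone, and the part of the other cells in the values was not tested. *H2-K1* was at 136 and 136 CPM in *Crym*+ cells and at 121 and 139 CPM in *Crym*- cells. *H2-D1* was at 42.9 and 30.6 CPM in *Crym*+ and 33.4 and 44.0 CPM in *Crym*- cells, and *B2m* at 77.1 and 53.1 CPM and 70.2 and 78.4 CPM. The libraries disagreed in direction for *H2-D1* and *B2m*, and *Crym*+ cells were deeper, with a median of 2494 and 5354 UMIs beside 1499 and 2139. None of the 3 members detected widely enough to test was called (log2 difference 0.06 ± 0.10 for *H2-K1*, -0.08 ± 0.20 for *H2-D1* and -0.20 ± 0.15 for *B2m*). Of all genes tested there, 6.17% were called, while 0 of the 3 members had an unadjusted p under 0.05, and DESeq2 also called 0.

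The wider pathway was read in 3 further lists: 15 class II genes tested (chains, proteases and transcription factors), 22 class I genes and 5 costimulatory genes. In the microglia-like class, 13 of the 15 class II pathway genes and 20 of the 22 class I pathway genes were higher than in the astrocyte-like class, where 62.8% of all genes were called in either direction, and the other 2 of each list did not pass. The list medians were 4.78 and 2.34 on the log2 scale, beside 0.02 for all genes. *Ctss*, the lysosomal protease cathepsin S that trims the invariant chain, was higher by 7.48 ± 0.47, and *H2-Oa*, a chain of the H2-DM inhibitor H2-O, by 7.20 ± 0.43. *H2-DMb1*, the partner of *H2-DMa*, was at 94.1 and 110 CPM in the microglia-like class and at 232 and 196 CPM in the macrophage-like class.

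Against the microglia-like class, the macrophage-like class was higher in 3 and lower in 6 of the 15 class II pathway genes, where 20.8% of all genes were called. *H2-DMb2* was higher by 3.15 ± 0.61, while the proteases *Ctss* and *Lgmn* were lower, at -2.05 ± 0.36 and -1.71 ± 0.20 (adjusted p = 3.2e-03, 6.4e-04 and 1.1e-05). The list median was -0.66, beside -0.29 for all genes. *H2-Oa* was at 11.7 and 27.7 CPM in the macrophage-like class and at 52.3 and 51.2 CPM in the microglia-like class. Of the class I list 4 were higher and 5 lower, and *Nlrc5*, the coactivator of class I genes, was higher by 3.30 ± 0.85 from low levels, 10.0 and 17.1 CPM beside 0.563 and 1.83 CPM. Without the 3 immune subclusters, 0 of 14 class II pathway genes and 0 of 21 class I pathway genes were higher in the macrophage-like class by edgeR's test, and 7 and 9 were lower, where 18.6% of all genes were called. The genes higher at an unadjusted p under 0.05 numbered 0 and 1, and no other tool was run without these subclusters. *H2-Oa* then stood at -5.63 ± 0.73, and *Nlrc5*, at 2.46 ± 1.15, did not pass (adjusted p = 4.4e-05 and 0.17).

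Endothelial-like cells shared the class I side. Of the 22 class I pathway genes, 16 were higher than in the astrocyte-like class and 6 did not pass, where 56.9% of all genes were called. The list median was 2.33 beside 0.00 for all genes. Against the mural-like class 14 were higher and 8 did not pass, where 27.5% of all genes were called, with a median of 1.01 beside 0.13. The non-classical class I gene *H2-T23* was at 283 and 310 CPM and *H2-Q4* at 88.9 and 91.1 CPM in the endothelial-like class, beside 5.81 and 3.22 CPM and 1.72 and 0.644 CPM in the astrocyte-like class. *Psmb8* and *Psmb9*, subunits of the immunoproteasome that cuts peptides for class I, were at 104 and 146 CPM and 56.6 and 76.9 CPM. Arterial-like cells were higher than subcluster 0 in both, by 0.99 ± 0.18 and 1.13 ± 0.26 (adjusted p = 3.4e-05 and 1.4e-03). *Tap2*, the partner of *Tap1*, was at 92.5 and 110 CPM in endothelial-like cells and at 32.3 and 34.4 CPM in astrocyte-like cells, and against the latter it stood at -4.09 ± 0.22 in the oligodendrocyte-like and -3.48 ± 0.31 in the neuron-like class (adjusted p = 1.4e-10 and 9.0e-08).

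Of the 15 class II pathway genes tested, 5 were higher and 2 lower in endothelial-like than in astrocyte-like cells, and the list median was -0.11. The 7 called are a share no higher than the 56.9% of all genes. Costimulatory molecules on presenting cells give T cells a signal beside the peptide. *Cd40* was at 22.1 and 33.2 CPM in the endothelial-like class and at 0.141 and 0.183 CPM in the microglia-like class, a difference of -6.86 ± 0.53 (microglia-like minus endothelial-like, adjusted p = 1.8e-08). *Cd86* ran the other way, at 183 and 230 CPM in the microglia-like and 3.29 and 1.62 CPM in the endothelial-like class (6.68 ± 0.35, adjusted p = 7.8e-11). The macrophage-like class had *Cd86* at 245 and 149 CPM and *Cd40* at 6.67 and 6.40 CPM.

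The genes whose levels ran most like the members' over the 18 sums of class and library were found by correlation with the mean log2(CPM + 10) of *H2-Aa*, *H2-Ab1*, *H2-Eb1* and *Cd74*, and of *H2-K1*, *H2-D1* and *B2m*, among 8564 genes. For the class II genes these were *Msr1*, *Ccr2*, *Ms4a4c*, *AB124611* and *Siglec1*, with Pearson correlations of 0.994 to 0.998, and for the class I genes *Il10rb*, *Tap1*, *Rap1b*, *Ifnar2* and *Shisa5*, with 0.962 to 0.983. The points share libraries and depth, and the class II figure rests on the 2 macrophage-like sums, so it is given as a description. *Tap1* is itself a member.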

How the data were processed

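Per the labels and the study's methods, dissociated mouse striatum was sequenced in 2 10x Genomics libraries, and the submitters' processing notes name Cell Ranger 4.0 and mm10. What the authors deposited is the UMI count of each gene in each barcode, made with Cell Ranger and not normalized. The study's starting number of cells is larger than the number of barcodes in these files.

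Barcodes under 300 genes and doublets marked by Scrublet (6% expected) were removed, which left 6783 and 5212 cells. Totals per library were 44597660 and 37982720 UMIs, with medians of 3852 and 5375 per barcode. Cells were integrated and clustered with Seurat 5.3.0 (2000 variable genes, 30 components, resolution 0.08), with the 10 members and 43 further pathway genes left out. A cluster was named where at least 3 markers of a list were raised 2-fold or more, with 10 CPM added. Subclusters of macrophage-like cells were made with scanpy 1.11.5. Crym+ cells had a natural log value above 0.25, and genes in at least 10% of either group were tested.

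UMIs summed per library and class were tested with edgeR 4.0.16 (filterByExpr, TMM, quasi-likelihood), with the library as a block, because classes within a library share 1 suspension. Adjusted p-values are Benjamini-Hochberg values over all genes tested. Intervals are exact Poisson or binomial (95%), and a count of 0 allows up to 3 counts. All 10 members could be named in every comparison, and where few UMIs were counted only the call is given. Of each wider list the 3 largest called differences per comparison could be named. Members and lists were chosen with earlier results of these data known. Alternatives were DESeq2 1.42.0, library sizes alone, no low-count filter, no block, other clusterings and cell filters, thinning to 1000 UMIs and leaving out a library. The code was tested on simulated data.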

Additional observations from a re-analysis of the deposited data

How the results depend on the processing

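Of 749 log2 differences under alternatives with a test, 692 kept their direction and their side of the threshold, 37 lost a call, 9 gained one and 11 turned. With 1 library at a time, which allows no test, 73 of 142 values moved by less than their spread, 60 moved further and 9 turned. Another scaling moved the median of all genes by more than 0.1 in 7 of 8 comparisons between classes, from 0.03 to -0.36 for oligodendrocyte-like minus astrocyte-like with library sizes alone. The cause of the following changes was not tested.

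Members called changed from 10 to 6 for macrophage-like minus endothelial-like without immune subclusters, which leaves fewer cells. They changed from 3 to 5 for endothelial-like minus mural-like with no filter on low counts and with doublets kept, from 3 to 5 for oligodendrocyte-like minus astrocyte-like with library sizes alone, and from 4 to 2 for neuron-like minus astrocyte-like with thinned cells. Without the replicate block, calls fell from 3 to 0 for arterial-like minus subcluster 0, from 1 to 0 for venous-like minus subcluster 0 and from 1 to 0 for pericyte-like minus smooth muscle-like. The same 3 counts were 0 with thinned cells, and the last 2 were 0 with DESeq2. The block moved no other count of members called by more than 1.5 times. Without cells holding an immune marker, 17 of 48 neighbouring pairs passed, beside 28 of 80. That filter left 272 of 1117 and 169 of 1025 microglia-like cells. The macrophage-like class, with 33 and 17 cells left, fell under the 20 cells needed in each library and dropped out. The microglia-like class itself held B cell markers at 222 and 289 CPM and neutrophil markers at 146 and 191 CPM. In both libraries 3 of the 5 B cell markers and 3 of the 4 neutrophil markers were at 0 UMIs there, as were all 5 T cell markers. These sums thus rest on few genes and do not show B cells or neutrophils in the class.

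The sign turned for *H2-DMa* between macrophage-like and microglia-like classes (-0.11 thinned, -2.00 without immune subclusters, -0.092 without replicate 1 and 0.49 without replicate 2) and for *Tap1* there (-0.27 without immune subclusters). It turned for *Tap1* in microglia-like minus endothelial-like (-0.029 with library sizes alone, -0.22 thinned) and for *H2-D1* in oligodendrocyte-like minus astrocyte-like (0.16 with doublets kept). For *H2-D1* in neuron-like minus astrocyte-like it was 0.10 with DESeq2, 0.16 with library sizes alone, 0.11 at the finer clustering and 0.11 and -0.37 without replicate 1 or 2. Among endothelial subclusters without replicate 1 or 2, arterial-like minus venous-like gave -0.063 and 0.18 for *H2-K1* and -0.37 and 0.78 for *Tap1*, and arterial-like minus subcluster 0 gave -0.11 and 0.83 for *Tap1*. In pericyte-like minus smooth muscle-like, *H2-K1* gave 0.27 and -0.16. For Crym+ minus Crym- cells, *B2m* gave 0.18 thinned and -0.57 and 0.13 without replicate 1 or 2, *H2-D1* 0.23 thinned and -0.52 and 0.35, and *H2-K1* -0.034 and 0.17. None of these was called in the reported fit.

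Planned comparisons with capillary-like cells were not run, because no subcluster met the rule for that name. Subcluster 0 as their reference, the mural subtypes, robust estimation of the spread and the removal of immune subclusters were chosen after seeing the data. With 2 libraries, low class II levels outside the macrophage-like class rest on few UMIs and are limited by depth.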
